A study of Mus musculus with 12 samples.

Results

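The homeobox and GATA transcription factors that lay out the embryonic body plan were examined in RNA from sorted nuclei of mouse hippocampal neurons. Members were all rows of the count table whose symbol is that of a gene of the 4 Hox clusters, Dlx1, Dlx2, Dlx4, Dlx5 or Dlx6, Pax1 to Pax9, a sine oculis homeobox gene such as Six2, Irx1 to Irx6, an Nkx gene, Gata1 to Gata6, or Lhx1 to Lhx5, Lhx8 or Lhx9. The choice used symbols alone and no measured value. It gave 92 of the 24015 rows of the table, namely 39 Hox, 14 Nkx, 9 Pax, 7 Lhx, 6 Irx and 6 Gata genes, 6 sine oculis homeobox genes and 5 Dlx genes. The questions were which of them were detected at all, and whether the libraries titled Late or Reactivated differed from those titled Basal and Early.

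All 12 libraries came from mice of the strain ArcCreERT2 x R26R-STOP-floxed-eYFP, genotype +/+, in which the Arc promoter drives a tamoxifen-dependent Cre and Cre switches on a yellow fluorescent protein, so that marking depends on Arc activity around the drug. The mice were kept in darkness for 24 h, received 4-hydroxytamoxifen 1 h before contextual fear conditioning, and were either killed 1.5 to 2 h later or returned to darkness for 48 h and killed on day 5, some of them after meeting the tone and context again. Hippocampi of 10 to 12 mice were pooled, nuclei were fixed in 1% paraformaldehyde, stained for NeuN, Arc and GFP and sorted, with 10000 nuclei per condition and 3 biological replicates each of Basal, Early, Late and Reactivated. The treatment label reads the same for all 12 libraries (foot shock on day 0, no recall, tissue collected on day 0), so the groups rest on the titles alone, and which sorting gate and which collection belongs to which title is not stated. A pool of mice is the replicate, and in such bulk samples fewer cells of a type and less RNA per cell cannot be told apart.

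As background, Hox genes sit in 4 clusters and, in the embryo, specify position from hindbrain to tail in the order in which they lie on the chromosome. The genes of the other families set up particular organs and cell types, for example forebrain interneurons (Dlx, Nkx2-1), the hippocampal field (Lhx2, Lhx5), the eye (Pax6, Six3, Six6), kidney (Six2), heart (Gata4) and blood (Gata1, Gata2). In adult neurons of the forebrain most of them are kept off by Polycomb repressive complexes, which place methyl groups on lysine 27 of histone H3, and exceptions such as Dlx1 in interneurons and Lhx2 in cortical neurons are known.

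The members were not silent as a set. Of the 92, 11 had a count of 0 in all 12 libraries, 46 had some counts but fewer than the 10 counts in at least 3 libraries that were required for testing, and 35 passed that requirement. Of all rows in the data 65.2% passed and 12.4% were at 0, against 38.0% and 12.0% of the members. The genes at 0 were Hoxa2, Hoxa4, Hoxb2, Hoxb5, Hoxb6, Hoxc9, Hoxc11, Hoxc12, Hoxd12, Hoxd13 and Pax7. With 105718323 counts in the 12 libraries together, a count of 0 allows a level of up to 0.0284 CPM (the usual unit of counts relative to the library total), the level of 3 counts, and this limit covers counting error only.

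Families differed in how much was detected. The tested genes were 11 of 39 Hox, 5 of 14 Nkx, 4 of 6 Gata, 4 of 5 Dlx, 3 of 9 Pax, 3 of 7 Lhx and 0 of 6 Irx genes, and 5 of the 6 sine oculis homeobox genes. Of the 46 genes under the requirement, 39 stayed below 10 counts in every library, with 1 to 28 counts in all 12 libraries together. The other 7 reached a count of 10 in at least 1 library. Hoxc13 had 13, 11 and 5 counts in the Late libraries and 0 to 7 elsewhere, and Pax2, a gene of kidney and midbrain development, had 12, 5 and 9 in Late and 0 to 7 elsewhere. Irx3 had 17, 8 and 9 counts in Late, 20, 4 and 9 in Reactivated and 2 to 6 in Basal and Early. Irx1 (25 counts), Irx2 (10) and Hoxa6 (10) had their counts wholly or almost wholly in Reactivated 1. The last of the 7, Nkx2-2, a gene of the oligodendrocyte lineage, had 13 of its 21 counts in Reactivated 3. It had at most 3 counts in any other library. The number of members with at least 1 count per library was 48 to 52 in Late and 40 to 53 in Reactivated, against 44 to 47 in Basal and 45 to 47 in Early. Thinned to the same depth of 4609645 counts outside Rn45s, the expected number was 47.3 ± 2.13 (SD, n = 3) in Late, 45.9 ± 6.98 in Reactivated, 43.9 ± 2.71 in Basal and 42.8 ± 0.929 in Early, and the libraries of Reactivated spanned the other groups.

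The library Reactivated 1 stands apart for rarely seen members. It held more than 50% of all counts of 7 of the 54 members with at least 5 counts (Hoxa6, Hoxc5, Irx1, Irx2, Nkx2-6, Pax4 and Pax9), whereas it did so for 1.35% of all 19285 genes with at least 5 counts. No other library did so for more than 1 member. Hoxa7 also had far more counts in Reactivated 1 (27) than in Reactivated 2 (2) or Reactivated 3 (2). Calls of named members that were lost without this library are therefore given, while calls gained without it are not named.

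Library totals ran from 4838166 to 11120255 counts. The ribosomal RNA precursor Rn45s took 4.72% to 12.9% of the counts in the Basal and Early libraries, 27.9% to 36.5% in Late and 18.8% to 27.7% in Reactivated, so that its share separates the later from the earlier groups and cannot be told apart from them. Neuronal marker genes were present in every library: Rbfox3, which encodes NeuN, had normalized counts of 1596 to 2346. Normalized counts here are counts scaled by edgeR's TMM factors to a common effective library size, and a log2 fold change is the difference of 2 group means in the fit to all 12 libraries, with its standard error (SE).

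Per kilobase of transcript, which allows levels of different genes to be compared, the tested members were low in Basal. Their median was 9.56 normalized counts per kb against 40.6 over the 15471 genes tested with a known length, and 1 of the 35, Dlx1 at 44.8 ± 18.2 per kb (SD, n = 3), lay above that overall median. It was followed in Basal by Lhx2 at 35.3 ± 1.45 per kb, Hoxb1 at 34.9 ± 3.40, Lhx5 at 29 ± 9.77, Gata5 at 27.9 ± 7.08 and Hoxd9 at 26.5 ± 5.81, neighbours in the order whose SD ranges overlap. In Late the median of the tested members was 27.5 per kb against 39.3 over all genes, and 13 of the 35 lay above the overall median. The order changed as well: Hoxd9 reached 286 ± 96 per kb and Lhx5 238 ± 55.7 in Late, both above 89.2% of the genes with a length, followed by Hoxb1 at 146 ± 56.0 and Hoxc8 at 128 ± 28.2. The median was 8.74 per kb in Early and 12.3 in Reactivated, with 1 and 3 members above the overall median.

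**Figure D1:**
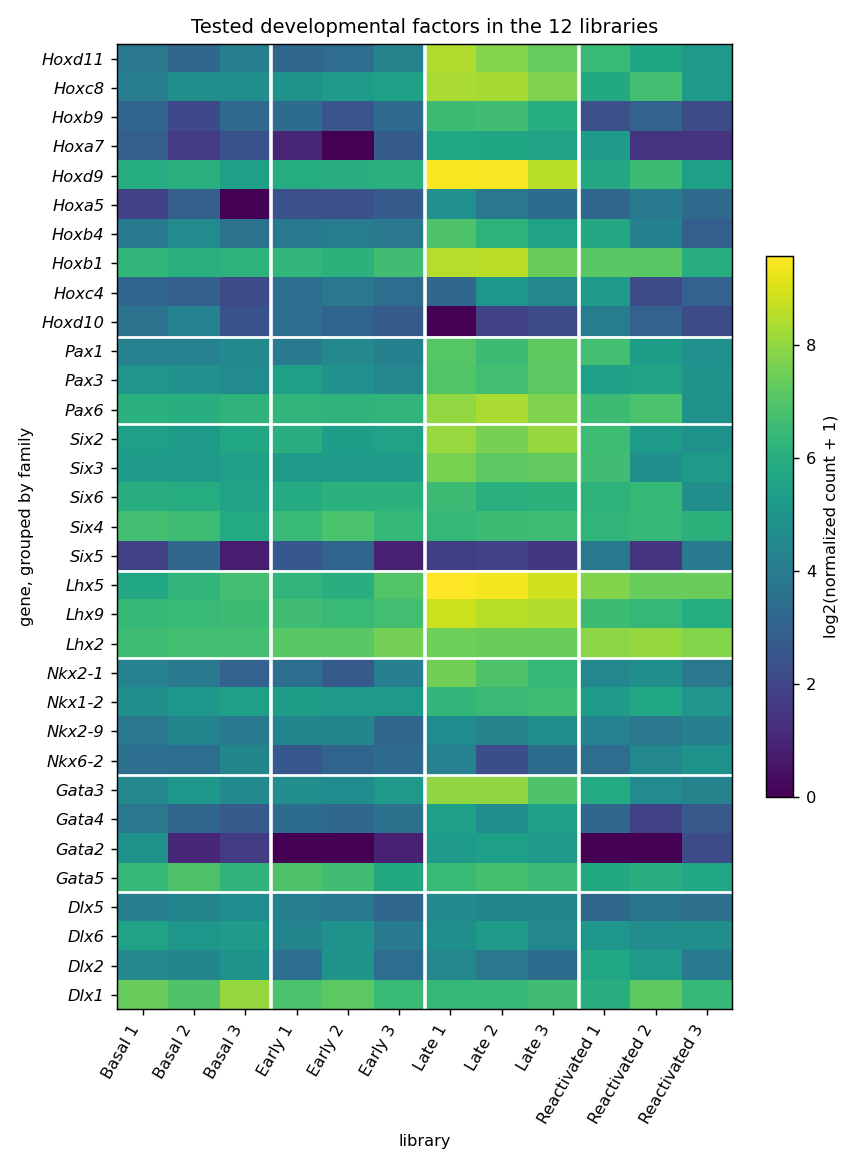
Heat map of 33 tested developmental factors (rows, grouped by family) in the 12 libraries (columns), coloured by log2(normalized count + 1). The 3 Late libraries are the brightest columns for most Hox, Pax, Lhx and Gata rows, while Six4, Six6 and Gata5 look alike across groups and Dlx1 is brightest in Basal 3.

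In Late, 21 of the 35 tested members were higher than in Basal and 2 were lower. Among them were Hoxd11, Hoxc8, Hoxb9, Hoxa7, Hoxd9, Nkx2-1, Lhx5, Gata3, Pax1, Hoxa5, Six2, Hoxb4, Lhx9, Pax3, Gata4, Six3, Hoxb1, Pax6, Nkx1-2 and Lhx2, in the order of their log2 fold changes, which ran from 4.23 down to 0.75. The 2 lower members were Hoxd10 and Dlx1. Among all 15668 genes tested, 49.1% differed between Late and Basal at an adjusted p under 0.05, 25.4% being higher and 23.6% lower in Late. The median log2 fold change was 2.06 over the tested members and -0.03 over all genes.

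Against Early, 20 members were higher in Late and 0 were lower, where 42.3% of all genes differed (22% higher, 20.4% lower). Of these, 19 were higher than both Basal and Early (18.9% of all genes were), the exception being Gata2, and the median was 1.89 over the members against -0.03 over all genes. The lowest Late library exceeded all 6 Basal and Early libraries for 21 of the 35, as it did for 24% of all genes, and all 9 other libraries for 17, as it did for 13.6%. Of the tested members, 5, with Gata2, Hoxa5, Hoxa7 and Hoxb9 among them, met the count requirement only through their Late counts and so had to be high there. Of the 30 that met it without the Late libraries, 17 were higher in Late than in Basal, against 25.2% of all genes that did.

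These counts depend on how the libraries are scaled. With library totals alone, Rn45s included, the median of all genes shifted to -0.87 in Late against Basal, and 18 members were called higher and 6 lower, among 1401 higher and 9062 lower genes in all. With the Rn45s share of each library added to the fit as a covariate, 1 member (Pax3) was called in Late against Basal and 0 in Late against Early, among 205 and 94 genes called over all. The fold changes themselves split under this covariate: in Late against Basal the log2 values of Hoxd9 (3.10), Hoxc8 (3.09), Hoxa5 (2.88), Gata4 (2.30) and Nkx1-2 (1.38) stayed near those without it. In the same comparison Gata3 (0.32), Hoxb1 (0.40) and Six3 (0.31) came near 0 and Hoxa7 and Hoxb4 turned negative. Others fell but stayed positive, among them Hoxd11 (to 1.38), Lhx5 (0.96), Pax1 (1.46), Six2 (1.36), Hoxb9 (2.19) and Nkx2-1 (2.34). Whether the Rn45s share has a part in the difference was not tested apart from the groups.

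**Figure D2:**
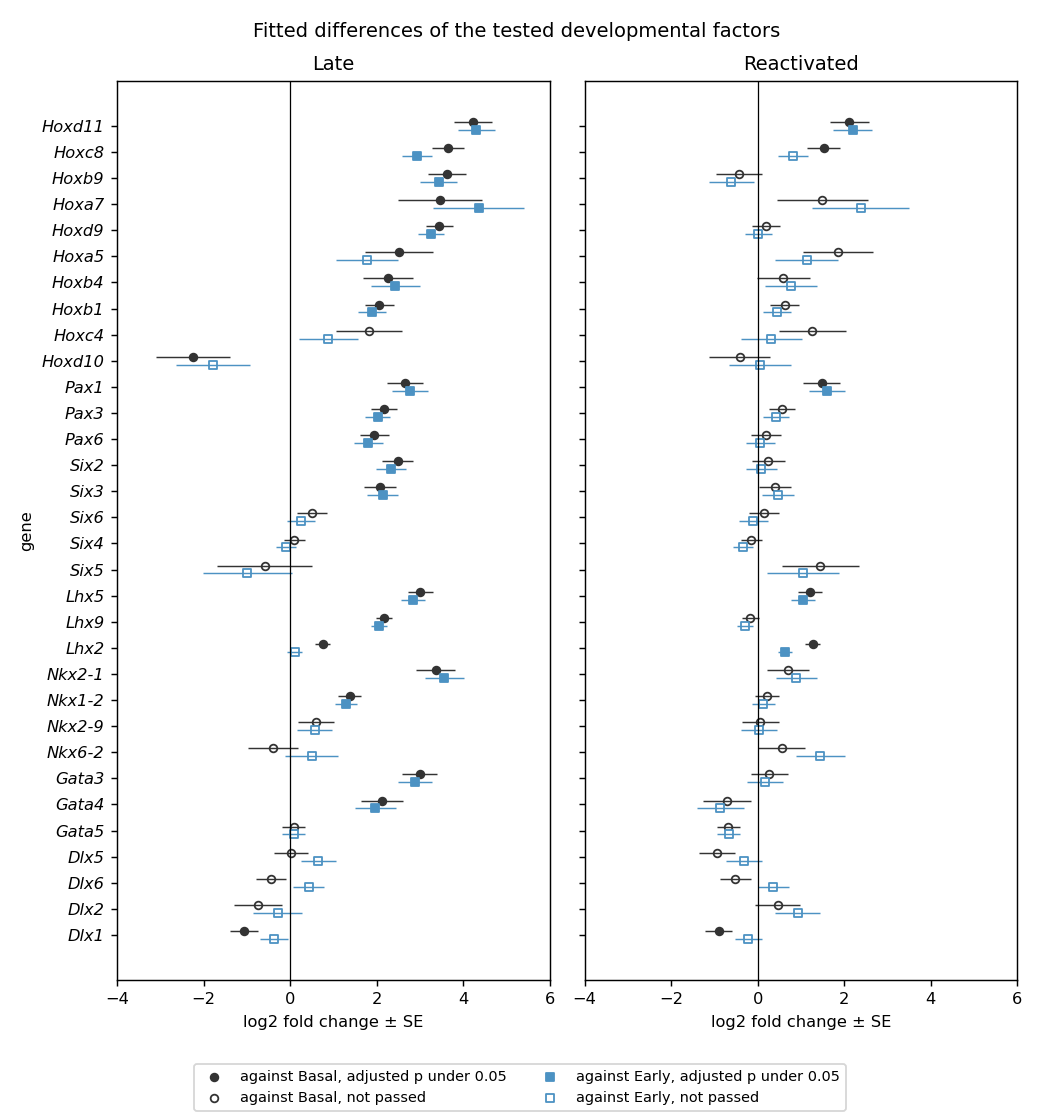
Log2 fold changes ± SE of 32 tested developmental factors in Late (left) and Reactivated (right), against Basal (dark circles) and against Early (blue squares), with filled symbols at adjusted p under 0.05. Gata2 is left out because Early held 1 count of it, and most filled symbols lie right of 0 in the Late panel, up to 4.23 for Hoxd11 against Basal.

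Several of the members that were higher in Late carry a long simple repeat in their transcript, which was noticed after the values had been seen. Transcripts of GENCODE M21 with a RefSeq identifier were searched on both strands for perfect tracts of at least 20 bases made of the repeated unit GA or CT, or of GAA or CTT, in any phase. Such a tract was found in 10 of the 92 members and in 3.7% of the 15316 tested genes that have such a transcript. The first 30 bases, 8 of flank and 22 of the tract, are shown 5′ to 3′ on the transcript for the genes the result turns on, with the tract in capitals:
Hoxb9: ctttgcgcCTCTCTCTCTCTCTCTCTCTCT
Hoxd11: gttgtcttTTCTTCTTCTTCTTCTTCTTCT
Lhx5: ggagagaaAGAGAGAGAGAGAGAGAGAGAG
Lhx9: gaaccaaaAGAGAGAGAGAGAGAGAGAGAG
Nkx2-1: ctggacgaCTTCTTCTTCTTCTTCTTCTTC
Pax1: ttctgcatTCTCTCTCTCTCTCTCTCTCTC
Pax3: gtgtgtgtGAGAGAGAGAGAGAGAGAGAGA
Six2: ttctcattTCTCTCTCTCTCTCTCTCTCTC
Six3: ggctcgcgCTCTCTCTCTCTCTCTCTCTCT
Hoxc9: ttgaaaaaCTCTCTCTCTCTCTCTCTCTCT

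The whole tract was 36 bases long in Pax3, 42 in Lhx9, 48 in Hoxb9, 60 in Six3, 62 in Pax1, 64 in Hoxc9, 70 in Six2, 81 in Hoxd11, 82 in Lhx5 and 87 in Nkx2-1. It lay in the 3′ untranslated region of Hoxb9, Hoxc9, Lhx5, Lhx9, Nkx2-1, Pax1, Pax3 and Six2, in the 5′ untranslated region of Six3, and in Hoxd11-201, a transcript of the Hoxd11 gene that is annotated without coding sequence. All 9 tested members with a tract were higher in Late than in Basal and than in Early, with a median log2 fold change of 2.65 against Basal. Hoxc9 is the tenth and had a count of 0 in every library. The 26 tested members without a tract were higher in 12 cases and lower in 2, with a median of 1.06.

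The same difference between genes with and without a tract held over the whole table. Of the 566 tested genes with a tract 58.5% were higher in Late than in Basal, against 24.2% of the 14750 without one, with medians of 0.90 and -0.05. In Reactivated against Basal the shares were 32.3% and 20.3%, and in Early against Basal 3.89% and 3.38%. Among genes with a mean normalized count under 100 the shares in Late against Basal were 44.7% with a tract and 12.2% without, and among the more abundant genes 62.7% and 34.1%. Of 1128 tested genes with a CA or GT tract of that length and none of the former kind, 43.4% were higher in Late than in Basal. Some of the 26 members counted above as without a tract are among these. They are Hoxc8 (52 bases) and Nkx1-2 (34), both higher in Late, and Nkx2-9 (52) and Six4 (32), which were not called. These are descriptions of a feature chosen on the same libraries, so they carry no test, and whether reads at the tracts account for the counts was not tested, since the deposited table holds 1 count per gene and no read positions. Median transcript GC content was 53.7% in the tested members and 49.6% in all genes tested.

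**Figure D3:**
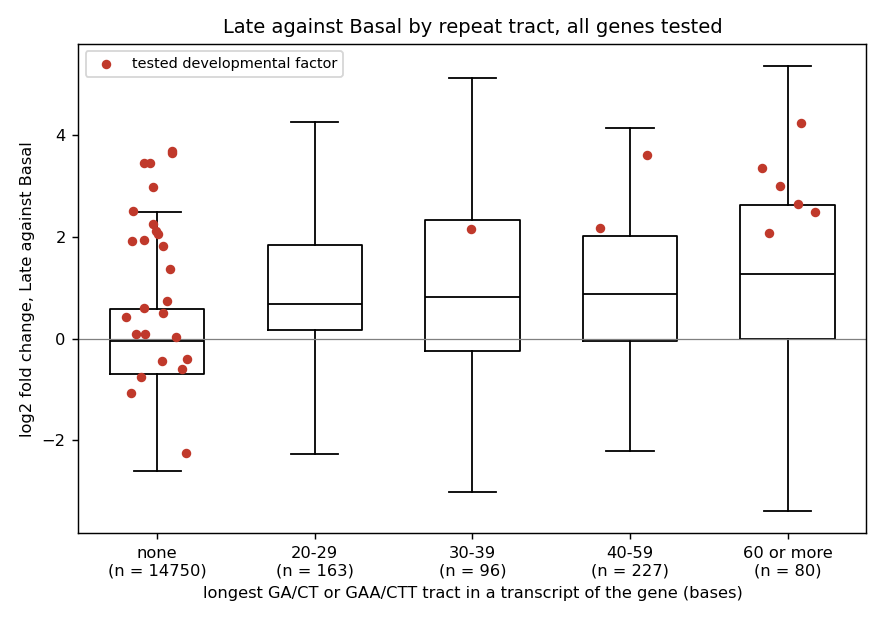
Log2 fold change of Late against Basal (y axis) by the length of the longest GA/CT or GAA/CTT tract in a transcript of the gene (x axis, bases), for all tested genes (boxes: quartiles and median, whiskers to 1.5 times the interquartile range, outliers not drawn) with the 35 tested developmental factors as red points. The median is -0.05 without a tract and 1.28 with a tract of 60 bases or more, and the 9 members with a tract all lie above 2.

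Of the 11 tested Hox genes 9 were higher and 1 was lower in Late than in Basal, with a median log2 fold change of 3.45, and within each cluster a few genes carried nearly all counts. Cluster A held 301 counts in the 3 Late libraries together and 118 in Reactivated, against 33 in Basal and 36 in Early. In the same order cluster B held 1198, 419, 291 and 374, cluster C 826, 255, 90 and 182, and cluster D 2203, 389, 243 and 312. Summed over the 39 Hox genes, and leaving Rn45s out of the total, the level was 256, 246 and 155 CPM in the Late libraries, 79, 61.8 and 30.8 in Reactivated, 37.5, 38.7 and 30.5 in Basal and 36.4, 38.1 and 40.7 in Early. All Late libraries thus lay above all others, and Reactivated spanned from the Basal level to above it.

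**Figure D4:**
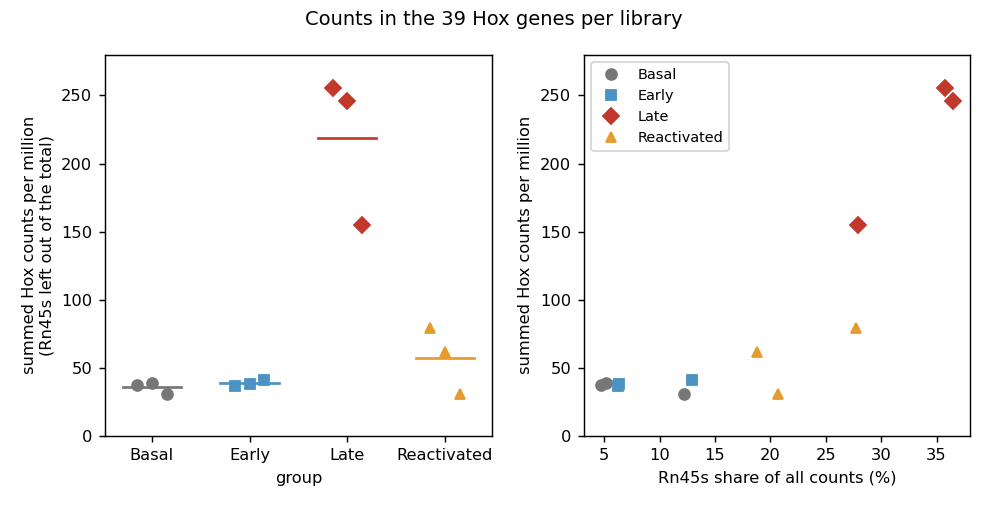
Summed level of the 39 Hox genes in CPM without Rn45s, by group (left, points are libraries and lines are means) and against the Rn45s share of all counts in percent (right). The Late libraries lie at 155 to 256, all other libraries at 30.5 to 79, and the Rn45s share is 18.8% or more in the Late and Reactivated libraries and 12.9% or less in the others.

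In cluster D, Hoxd9 and Hoxd11, genes of the posterior axis and the limbs, stood out. Hoxd9 had normalized counts of 722, 738 and 375 in Late, 53.7, 95 and 42.6 in Reactivated, 59.6, 67.3 and 43 in Basal and 59.5, 64.9 and 66 in Early. Its Late libraries lay far above the rest, with a log2 fold change of 3.45 ± 0.31 (SE), 10.9-fold higher, edgeR adjusted p = 1.2e-06, while the other groups overlapped. Hoxd11 had 350, 223 and 158 in Late, 89.5, 48.4 and 34.6 in Reactivated, 13, 7.86 and 16.5 in Basal and 8.35, 9.66 and 18.4 in Early. Both Late and Reactivated lay wholly above Basal and Early, with a log2 fold change of 4.23 ± 0.44 (SE), 18.8-fold higher, edgeR adjusted p = 3.48e-06 in Late and with a log2 fold change of 2.12 ± 0.45 (SE), 4.36-fold higher, edgeR adjusted p = 0.00241 in Reactivated. Their neighbours did not follow: Hoxd12 and Hoxd13 were at 0 and Hoxd8 had 2 counts in all libraries together. Hoxd10, between the pair in the cluster, had 0, 2.64 and 3.74 in Late, 15.1, 7.04 and 3.55 in Reactivated, 11.7, 18 and 4.30 in Basal and 10.4, 7.59 and 5.85 in Early. Hoxd10 was lower in Late than in Basal, with a log2 fold change of -2.24 ± 0.85 (SE), 4.73-fold lower, edgeR adjusted p = 0.0399, a call that was lost without Basal 1, Basal 2, Late 1, Late 2 or Early 2 in turn (adjusted p 0.0521 to 0.163 by edgeR) and with the replicate number as a block (0.0599).

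In cluster C nearly all counts fell on Hoxc8, a gene of the thoracic trunk and of spinal motor neurons. It had 332, 310 and 214 in Late, 55.1, 105 and 34.6 in Reactivated, 15.6, 25.8 and 25.1 in Basal and 28.2, 38.6 and 43.4 in Early. Late was above all other groups, with a log2 fold change of 3.65 ± 0.37 (SE), 12.6-fold higher, edgeR adjusted p = 2.93e-06, and Reactivated was above Basal, with a log2 fold change of 1.53 ± 0.38 (SE), 2.88-fold higher, edgeR adjusted p = 0.00583, but not above Early (log2 fold change 0.82, edgeR adjusted p = 0.0973). The next gene of the cluster, Hoxc9, was at 0 throughout. Hoxc4 had 8.41, 33 and 21.5 in Late, 34.4, 3.52 and 7.11 in Reactivated, 7.77, 6.73 and 3.59 in Basal and 10.4, 13.1 and 10.0 in Early, with overlapping groups and no call in any comparison.

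In cluster B the anterior gene Hoxb1, which specifies a hindbrain segment, was the most abundant. Hoxb1 had 362, 383 and 171 in Late, 138, 138 and 62.2 in Reactivated, 80.3, 66.2 and 71.7 in Basal and 78.3, 69.7 and 98.6 in Early. The Late libraries lay above all others. Late was higher than Basal by a log2 fold change of 2.06 ± 0.33, edgeR adjusted p = 0.00014. Hoxb9, a gene of the thoracic axis, had 93.7, 99.1 and 59.8 in Late, 4.13, 7.04 and 3.55 in Reactivated, 7.77, 3.37 and 8.61 in Basal and 9.39, 4.83 and 9.19 in Early. It was higher in Late, with a log2 fold change of 3.62 ± 0.44 (SE), 12.3-fold higher, edgeR adjusted p = 1.4e-05, and Reactivated stayed within the range of Basal and Early. Hoxb4, active in the cervical axis and in blood stem cells, had 118, 72.7 and 44.8 in Late, 53.7, 17.6 and 6.22 in Reactivated, 14.3, 23.6 and 11.5 in Basal and 13.6, 15.9 and 13.4 in Early. Its Late libraries varied, and the lowest of them lay below Reactivated 1, with a log2 fold change of 2.26 ± 0.58 against Basal, edgeR adjusted p = 0.00503.

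In cluster A the counts were few. Hoxa7, a trunk gene, had raw counts of 43, 37 and 48 in Late, 27, 2 and 2 in Reactivated, 5, 2 and 6 in Basal and 1, 0 and 7 in Early. The Late libraries and Reactivated 1 were high and the other libraries held 7 counts or fewer, which gave a log2 fold change for Late against Basal of 3.46 ± 0.98 (edgeR adjusted p = 0.0092). Hoxa5, a gene of the cervical axis and the lung, had raw counts of 23, 10 and 10 in Late, 6, 16 and 10 in Reactivated, 2, 6 and 0 in Basal and 4, 6 and 7 in Early. It passed against Basal (log2 fold change 2.51 ± 0.79, edgeR adjusted p = 0.017) but not against Early (adjusted p = 0.0571), and not without Late 1 (0.0948).

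**Figure D5:**
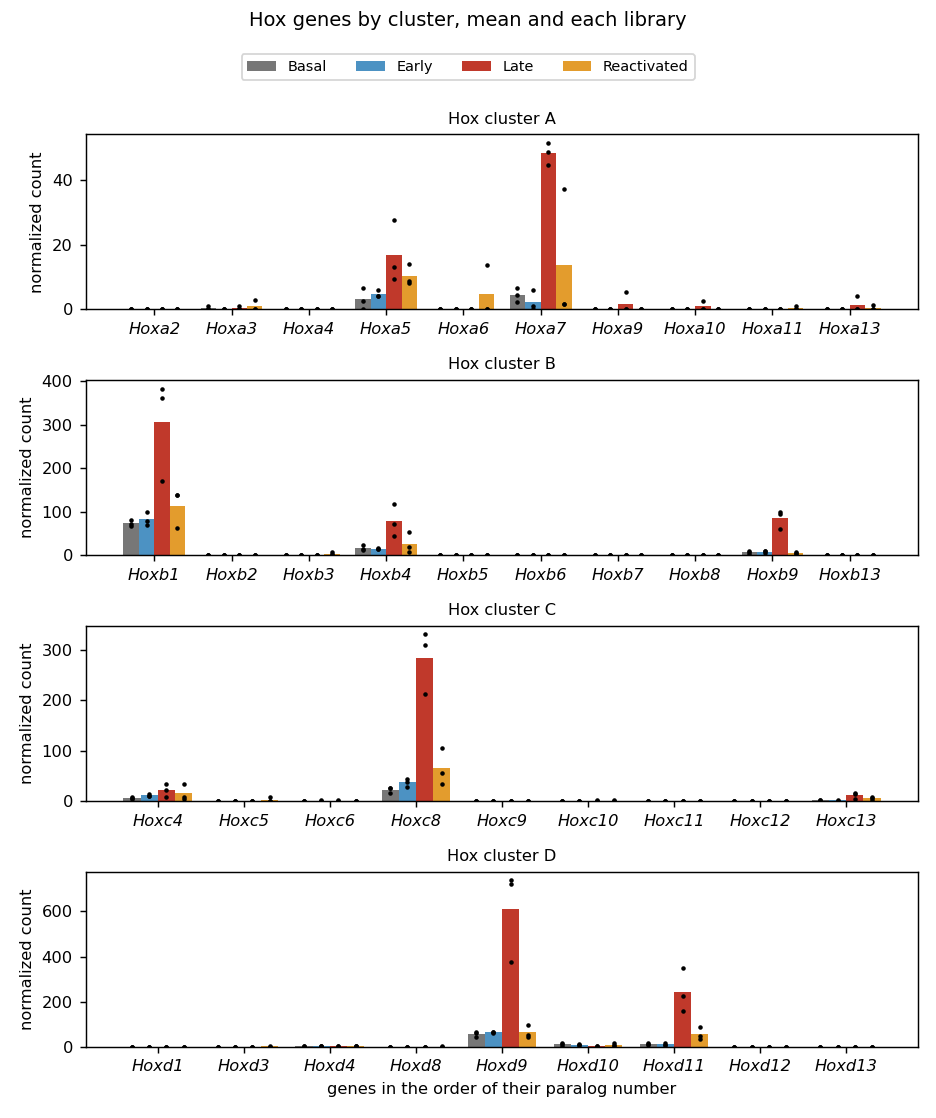
Normalized counts of 38 Hox genes by cluster, in the order of their paralog number; bars are means of 3 libraries and black points the libraries, with a separate y axis per cluster. Late bars are the tallest at Hoxa5, Hoxa7, Hoxb1, Hoxb4, Hoxb9, Hoxc8, Hoxd9 and Hoxd11, and many neighbouring genes stay at or near 0.

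Among the LIM homeobox genes, Lhx5, needed for the hippocampal primordium, and Lhx9, a thalamic gene, were higher in Late. Lhx5 had 765, 683 and 474 in Late, 218, 164 and 171 in Reactivated, 53.1, 75.2 and 106 in Basal and 77.2, 64.9 and 125 in Early. Late was above all other groups, with a log2 fold change of 3.01 ± 0.28 (SE), 8.04-fold higher, edgeR adjusted p = 1.64e-06, and Reactivated was above Basal and Early, by 1.21 ± 0.28 (edgeR adjusted p = 0.00418) and 1.04 ± 0.28 (adjusted p = 0.0145) on the log2 scale. The call against Early was lost without Early 1 (edgeR adjusted p = 0.0647), without Early 2 (0.0773) and with a GC correction (0.0534). Lhx9 had 465, 376 and 357 in Late, 95, 82.7 and 59.5 in Reactivated, 84.2, 86.4 and 94 in Basal and 98.1, 87.6 and 103 in Early. Its replicates were close, and Late alone was high, with a log2 fold change of 2.17 ± 0.19 (SE), 4.51-fold higher, edgeR adjusted p = 7.94e-07.

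Lhx2, which selects cortical and hippocampal identity and is known in adult cortical neurons, had another order of groups. It had 174, 170 and 162 in Late, 240, 268 and 220 in Reactivated, 95.9, 101 and 104 in Basal and 140, 141 and 191 in Early. Reactivated was highest, with no overlap with any other group, with a log2 fold change of 1.27 ± 0.17 (SE), 2.42-fold higher, edgeR adjusted p = 0.000109, and it had more than Late as well (log2 fold change 0.52 ± 0.16, edgeR adjusted p = 0.0317), a call lost without Late 1, Late 2, Late 3 or Reactivated 2 in turn (adjusted p 0.084 to 0.105 by edgeR). Against Early the difference of 0.63 ± 0.16 (edgeR adjusted p = 0.013) was lost without Early 1 or Early 2, under library totals alone (0.25, adjusted p = 0.315) and with a GC correction (0.26, adjusted p = 0.22). Late was higher than Basal by 0.75 ± 0.17 on the log2 scale (edgeR adjusted p = 0.00212) but overlapped Early. Lhx2 was the only member called between Early and Basal, at 0.65 ± 0.17 (edgeR adjusted p = 0.0319), a comparison in which 6.03% of all genes differed 3.36% being higher and 2.66% lower. The call was lost without Basal 1, Basal 2, Early 3, Late 1 or Late 2 in turn. With library totals alone the log2 fold change of Lhx2 was -0.09 in Late against Basal and 0.55 in Early against Basal (edgeR adjusted p = 0.126). Lhx1, Lhx3, Lhx4 and Lhx8 had at most 8 counts in any library.

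The 3 tested Pax genes were all higher in Late. Pax6, a gene of neural progenitors and the eye, had 257, 329 and 214 in Late, 95, 115 and 29.3 in Reactivated, 68.7, 64 and 73.9 in Basal and 76.2, 74.5 and 76.8 in Early. Late was above all other libraries, with a log2 fold change of 1.94 ± 0.34 (SE), 3.85-fold higher, edgeR adjusted p = 0.000313. Pax3, of the dorsal neural tube, neural crest and muscle, had 124, 100 and 144 in Late, 44.1, 47.5 and 30.2 in Reactivated, 31.1, 28.1 and 23.7 in Basal and 42.8, 27.6 and 20.9 in Early, and Late was again apart, with a log2 fold change of 2.17 ± 0.30 (SE), 4.48-fold higher, edgeR adjusted p = 4.4e-05. Pax1, which forms vertebrae, had 133, 95.1 and 147 in Late, 105, 40.5 and 27.5 in Reactivated, 18.1, 18 and 23 in Basal and 14.6, 22.1 and 17.5 in Early. Late was higher by 2.65 ± 0.42 (edgeR adjusted p = 0.000138) than Basal, and Reactivated by 1.48 ± 0.43 (adjusted p = 0.0138). Late and Reactivated 1 were high and overlapped. The Reactivated calls of Pax1 were lost without Reactivated 1, where the log2 fold changes were 0.76 against Basal (edgeR adjusted p = 0.0709) and 0.89 against Early (edgeR adjusted p = 0.0567), and also without Basal 2 and without Early 1, respectively.

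In the sine oculis family, Six2 and Six3 were higher in Late and Six4, Six5 and Six6 were not called in any comparison. Six2, which maintains kidney progenitors, had 271, 194 and 270 in Late, 96.4, 36.1 and 29.3 in Reactivated, 41.5, 35.9 and 52.4 in Basal and 62.6, 40.0 and 45.1 in Early. Late stood apart, with a log2 fold change of 2.49 ± 0.36 (SE), 5.6-fold higher, edgeR adjusted p = 6.56e-05, and Reactivated 1 was above the other Reactivated libraries. Six3, a gene of the anterior forebrain and eye, had 198, 141 and 155 in Late, 97.8, 26.4 and 36.4 in Reactivated, 37.6, 34.8 and 43.8 in Basal and 36.5, 38 and 37.6 in Early, with a log2 fold change of 2.08 ± 0.36 in Late against Basal (edgeR adjusted p = 0.000312). Its antisense neighbour Six3os1 was also higher in Late (log2 fold change 1.45 ± 0.30, edgeR adjusted p = 0.00109), and since the strand setting of the counting is not given, reads of the pair cannot be told apart. Six4, of muscle and sensory development, had a mean of 90.6 ± 6.77 (SD, n = 3) in Late, 76.5 ± 5.87 in Reactivated, 86 ± 25.8 in Basal and 96.2 ± 18.5 in Early. Six6, of the eye and pituitary, had 77.3 ± 14.3, 60.8 ± 30.8, 55 ± 9.10 and 64.8 ± 5.51 in the same order, and Six5 stayed at 16 counts or fewer.

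Among the Nkx genes, Nkx2-1, which specifies the ventral forebrain, thyroid and lung, had the largest log2 fold change in Late. Nkx2-1 had 182, 120 and 82.2 in Late, 20.7, 26.4 and 13.3 in Reactivated, 18.1, 13.5 and 7.17 in Basal and 10.4, 5.52 and 16.7 in Early. Late was above all other groups, with a log2 fold change of 3.36 ± 0.45 (SE), 10.3-fold higher, edgeR adjusted p = 3.7e-05. Nkx1-2, a gene of the posterior growth zone of the embryo, had 79.3, 92.5 and 97.1 in Late, 37.2, 51.9 and 31.1 in Reactivated, 27.2, 31.4 and 43 in Basal and 39.7, 34.5 and 35.9 in Early, and its log2 fold change in Late was 1.38 ± 0.27 (edgeR adjusted p = 0.000678), which fell to 0.57 with an adjusted p of 0.108 under library totals alone. Nkx2-9 and Nkx6-2 (a gene of myelinating cells) had group means of 7.33 to 22.9 normalized counts and were called in 0 comparisons.

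Of the GATA factors, Gata3 and Gata4 were higher in Late. Gata3, a regulator of T cells, inner ear and midbrain inhibitory neurons, had 256, 254 and 118 in Late, 56.5, 23.8 and 18.7 in Reactivated, 22, 33.7 and 23 in Basal and 25.1, 24.2 and 35.1 in Early. Late was above the rest, with a log2 fold change of 2.99 ± 0.40 (SE), 7.94-fold higher, edgeR adjusted p = 3.43e-05. Gata4, a heart gene, had 43.2, 25.1 and 43.9 in Late, 8.26, 2.64 and 5.33 in Reactivated, 13, 7.86 and 5.74 in Basal and 9.39, 8.28 and 10.9 in Early, with a log2 fold change of 2.12 ± 0.48 in Late against Basal (edgeR adjusted p = 0.00222). Gata2, of blood stem cells and inhibitory neurons of the midbrain, had raw counts of 31, 31 and 37 in Late, 0, 0 and 4 in Reactivated, 22, 1 and 3 in Basal and 0, 0 and 1 in Early. It was thus high in the Late libraries and in Basal 1, and 1 count was found in Early against 99 in Late, a ratio of 134 with a counting interval of 23.5 to 5350 (exact binomial, 95%, counting error only, edgeR adjusted p = 0.00115). Late against Basal did not pass for Gata2 (edgeR adjusted p = 0.076). Gata5, a heart and gut gene, had means of 96.5 ± 9.17 (SD, n = 3) in Late, 56.9 ± 6.57 in Reactivated, 91.4 ± 23.2 in Basal and 91.1 ± 31.8 in Early, with no call. Gata1, the red blood cell factor, had at most 7 counts and Gata6 3 counts in all.

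Of the 4 tested Dlx genes of the set, which specify forebrain interneurons, 0 were higher in Late or Reactivated and Dlx1 was lower. Another, Dlx3, a gene of skin and placenta that the rule leaves out, was higher in Late, with normalized counts of 74.5, 93.8 and 34.5 there and 5.22 or less in all other libraries (log2 fold change 5.56 ± 0.60 against Basal, edgeR adjusted p = 5.16e-06). Dlx3 met the count requirement only through these Late counts, so it had to be high there to be tested. Dlx1 had 82.9, 83.2 and 98.1 in Late, 63.3, 147 and 84.4 in Reactivated, 164, 121 and 267 in Basal and 115, 142 and 87.7 in Early. It was lower than Basal in Late, by -1.07 ± 0.32 (edgeR adjusted p = 0.0127), and in Reactivated, by -0.90 ± 0.32 (adjusted p = 0.0352), and Basal 3 was its highest library. All Late libraries lay below all Basal libraries, and Reactivated 2 lay among them. Without Basal 3 both calls were lost, at log2 fold changes of -0.69 (edgeR adjusted p = 0.0818) and -0.52 (edgeR adjusted p = 0.195), and the Reactivated call was also lost without Basal 1, Reactivated 1 or Reactivated 3. Dlx2, Dlx5 and Dlx6 had Late against Basal log2 fold changes of -0.75, 0.03 and -0.45 and were called in 0 comparisons, and Dlx4 had 2 counts in all. The antisense RNA Dlx6os1 was lower in Late than in Basal by a log2 fold change of -1.41 ± 0.27 (edgeR adjusted p = 0.000638), while Dlx1as did not differ beyond its error (-0.01 ± 0.23).

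Reactivated differed from Basal and Early in few members. Against Basal 5 were higher (Hoxd11, Hoxc8, Pax1, Lhx2 and Lhx5) and 1 lower (Dlx1), where 39.4% of all genes differed, 20.6% higher and 18.8% lower. Against Early 4 were higher (Hoxd11, Pax1, Lhx5 and Lhx2) and 0 lower, where 26.2% of all genes differed, 13.5% being higher and 12.7% lower. The 4 were called against both groups, as 10.8% of all genes were in that direction. The members' shares called higher, 14.3% and 11.4%, were no larger than those of all genes. The median log2 fold change was 0.27 against Basal and 0.36 against Early, with 0.02 and 0.03 over all genes. The lowest Reactivated library exceeded all 6 Basal and Early libraries for 5 members (14.3%), Hoxa5, Hoxd11, Lhx2, Lhx5 and Pax1, as it did for 14% of all genes. The count against Early was small and moved with single libraries: 1 without Early 1, 2 without Early 2, and 4 without Reactivated 1. Over all genes the calls fell too, from 4109 to 1793 without Early 1 and 1698 without Early 2.

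Compared with Late directly, Reactivated was lower for 18 members and higher for 1, Lhx2. Over all genes 22.6% differed in that comparison, 12.3% being lower and 10.3% higher, and the medians were -1.44 over the members and 0.03 over all genes. The 18 were Hoxb1, Hoxb4, Hoxb9, Hoxc8, Hoxd9, Hoxd11, Lhx5, Lhx9, Pax1, Pax3, Pax6, Six2, Six3, Nkx1-2, Nkx2-1, Gata2, Gata3 and Gata4. The calls of Hoxb4 and Pax1 were close to the threshold (edgeR adjusted p = 0.0445 and 0.0401) and were lost in 9 and 8 of the 12 fits that left out 1 library. They reached an adjusted p of 0.216 without Late 1 for Hoxb4 and 0.129 without Late 3 for Pax1. The largest among those with at least 10 counts per group was Hoxb9, with a log2 fold change of -4.04 ± 0.46 (SE), 16.5-fold lower, edgeR adjusted p = 2.01e-05, followed by Hoxd9, with a log2 fold change of -3.25 ± 0.31 (SE), 9.48-fold lower, edgeR adjusted p = 4.4e-06. Without Reactivated 1 the number of members called in this comparison was 22. With Late and Reactivated averaged and set against the average of Basal and Early, 20 members were higher and 1 lower (27.9% and 25.8% of all genes), and a difference of any kind among the 4 groups was called for 23 of the 35 (58.6% of all genes). In the average comparison the calls of Hoxa7 (edgeR adjusted p = 0.068) and Dlx1 (0.052) were lost without Reactivated 1. Under library totals alone 4 members were higher and 6 lower in Reactivated against Basal, among 1240 higher and 5833 lower genes in all. The median log2 fold change of all genes was then -0.46.

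Genes that work with these factors were compared as well. Over all genes 25.4% were higher and 23.6% lower in Late than in Basal, and 20.6% and 18.8% in Reactivated. Of 27 partner proteins in the table, such as the TALE cofactors of Hox proteins, the Eya cofactors of Six2 and its relatives and the Ldb and Lmo cofactors of LIM factors, 13 were higher and 5 lower in Late, and 9 and 5 in Reactivated. Meis1, a Hox cofactor, had normalized counts of 823, 715 and 426 in Late, 95, 60.7 and 69.3 in Reactivated, 38.9, 58.4 and 46.6 in Basal and 59.5, 56.6 and 65.2 in Early. Its Late libraries lay far above the rest, with a log2 fold change of 3.76 ± 0.26 against Basal (edgeR adjusted p = 1.23e-07). Zfpm1, the GATA cofactor FOG1, was higher in both groups, by 2.74 ± 0.24 in Late and 2.16 ± 0.24 in Reactivated on the log2 scale (edgeR adjusted p = 1.02e-06 and 3.90e-05). Pbx2 and Tle3 were higher by 1.43 ± 0.18 and 1.41 ± 0.21 in Late against Basal on the same scale.

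A list of 73 developmental factors outside the rule, mostly of other families, was examined in the same way. Of the 33 tested, 19 were higher and 2 lower in Late than in Basal (25.4% and 23.6% of all genes), and 6 and 0 in Reactivated (20.6% and 18.8%). The median of 1.68 in Late compares with the 2.06 of the members. Some of the 33, Cdx2 and Dlx3 among them, met the count requirement only through their Late counts and so had to be high there. Foxa3, a liver and gut factor, had normalized counts of 508, 441 and 273 in Late, 110, 66.9 and 39.1 in Reactivated, 9.07, 20.2 and 13.6 in Basal and 20.9, 22.1 and 40.1 in Early, with a log2 fold change of 4.81 ± 0.42 in Late against Basal (edgeR adjusted p = 8.18e-07). Otx1 (2.99 ± 0.32) and Prrx1 (2.98 ± 0.21) were higher in the same comparison. Prrx1 and Otx1 carry a GA/CT or GAA/CTT tract of 58 and 48 bases, and Meis1 one of 58, but genes without a tract of 20 bases were higher too. The longest run was 8 bases in Foxa3 and in Zfpm1, 12 in Dlx3 and 0 in Cdx2, an intestinal and trunk factor with normalized counts of 261, 206 and 166 in Late and 4.40 or less elsewhere.

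Of 30 tested Polycomb genes, whose products keep these loci off, 12 were higher and 5 lower in Late than in Basal, and 10 and 6 in Reactivated, with medians of 0.13 and 0.04. Over all genes the shares were 25.4% and 23.6% in Late and 20.6% and 18.8% in Reactivated. Aebp2, a subunit of the complex that methylates lysine 27, had normalized counts of 1477, 1454 and 886 in Late, 478, 376 and 377 in Reactivated, 281, 315 and 353 in Basal and 304, 277 and 353 in Early, a log2 fold change of 2.00 ± 0.20 in Late against Basal (edgeR adjusted p = 2.34e-06). Pcgf2 (1.62 ± 0.25) and Phc2 (0.78 ± 0.12) were higher and Mtf2 (-0.79 ± 0.14) was lower on that scale. Of 16 Trithorax and lysine 27 demethylase genes, which act against Polycomb, 5 were higher and 3 lower in Late, near the shares over all genes, the demethylase gene Kdm6a among the latter (-1.06 ± 0.15, edgeR adjusted p = 6.38e-05).

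Markers of the cells in which some members are normally active were compared between the groups. The counts of markers called against Basal below stand beside these shares of all genes: 25.4% higher and 23.6% lower in Late, and 20.6% and 18.8% in Reactivated. Interneuron markers, 20 genes with none at 0, summed to 4321 to 4684 normalized counts in Late and 4787 to 5613 in Reactivated. They summed to 8279 to 9691 in Basal and 4204 to 5992 in Early. In Late 9 were lower and 1 higher than in Basal, a comparison in which Dlx1 was lower too. Against Early 4 were higher and 3 lower in Late (22% and 20.4% of all genes), and Dlx1 was not called. The sum includes Prox1, also a gene of dentate granule cells, whose own counts are given below. The 8 Cajal-Retzius cell markers, where Lhx5 is known, summed to 2715 to 5277 in Late, 1386 to 2920 in Reactivated, 1082 to 1578 in Basal and 1173 to 1299 in Early. The sum was carried by Nhlh2, with 4140, 3037 and 1716 in Late. In that list Nhlh2, Eomes and Cxcr4 were higher in Late than in Basal (3.44, 3.28 and 1.89 on the log2 scale), while Reln, the defining product of these cells, was lower (-0.80 ± 0.17), as was Ndnf (-1.57 ± 0.56). The 12 thalamus and habenula markers, where Lhx9 is known, summed to 3646 to 4098, 1548 to 2916, 1190 to 1674 and 1493 to 1665 in the same order, with 7 higher and 1 lower of 11 tested in Late against Basal. Microglia and blood cell markers summed to 1189 to 1229 in Basal and 6183 to 10261 in Late, with the globin genes Hba-a1 and Hbb-b1 at 0 in all libraries. Of the 7 tested, 4 were higher and 3 lower in Late than in Basal. Cx3cr1 (3.54 ± 0.32) and Itgam (3.74 ± 0.29) carried the sum, while the microglial genes P2ry12 (-1.97 ± 0.54) and Csf1r (-1.47 ± 0.46) were lower on the log2 scale. Oligodendrocyte lineage markers, 12 genes, were higher in 7 cases and lower in 0 in Reactivated against Basal, and 3 were higher and 5 lower in Late. Their sums ran from 4723 to 9958 in Late, 3015 to 7986 in Reactivated, 1773 to 2354 in Basal and 1513 to 1907 in Early. Of 10 neuron markers 7 were higher and 0 lower in Late than in Basal, and 8 and 0 in Reactivated. Of 12 hippocampal markers 6 were higher and 5 lower in both comparisons. Among them Prox1, the gene of dentate granule cells, had 1504 to 1861 normalized counts in Basal. It had 110 to 130 in Late, 119 to 457 in Reactivated and 265 to 307 in Early. The part of these cell types in the members' differences was not tested.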

How the data were processed

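RNA from sorted, fixed nuclei was sequenced as 12 libraries, 3 per title, prepared with the SMARTer Stranded Total RNA-Seq v2 Pico kit, ribosomal cDNA depletion and 15 PCR cycles, per the labels' protocols. The authors deposited 1 table of whole-number counts per gene symbol. Its name calls the counts normalized, but library totals of 4838166 to 11120255 and size factors that are not near 1 showed no scaling, so they were treated as raw. Bowtie2 2.0, Cufflinks 2.2, DESeq2 and the build mm9 are named without roles, per the submitters' processing notes. How reads were counted, with which annotation and with which strand option, is not given in the sources used here, and antisense and overlapping neighbours cannot be told apart. No column was left unused, and 27 rows carry symbols turned into calendar dates.

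Testing required a count of 10 or more in 3 or more libraries, which 15668 genes met, and used edgeR 4.0.16 (R 4.3.3), TMM scaling and the quasi-likelihood test over all 12 libraries, with Benjamini-Hochberg adjustment over all genes tested and a threshold of 0.05. The fitting script was also run on simulated counts built from the means, spread and library sizes of these data. Same-numbered Basal and Early libraries deviated together (r = 0.331, 0.143 and 0.484). So did Basal 1 with Early 2 (0.223) and Basal 2 with Early 1 (0.168). Basal 3 and Early 3 correlated negatively with the other 2 numbers of the other group, and they share a raised Rn45s share. The labels do not say what a number marks. Alternatives used DESeq2 1.42.0, limma 3.58.1 (GC correction), other scalings and filters, and left out each library. Of them, 4 were chosen after seeing the data: leaving out Basal 3 and Early 3, the Rn45s covariate, and the GC correction without and with the replicate block. Levels per kb and repeat tracts used GENCODE M21 transcripts (GRCm38), matched by symbol.

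The members and gene lists were chosen with earlier results of these data known. Tested members are named, except a few items that are not reported here and stay in the counts, with full statistics for up to 10 called members by adjusted p in each direction and comparison. Untested members are named with counts where 1 library reached 10, and up to 4 genes of each other list by the p of the average comparison. Genes named beyond this, and the tracts, were chosen after their values were seen. Intervals and limits from counts cover counting error only, since PCR copies are not independent molecules.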

Additional observations from a re-analysis of the deposited data

How the results depend on the processing

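Of the 91 calls of members named here, all 91 were kept with DESeq2's size factors and with DESeq2's test, 90 with Rn45s left out before TMM and 75 under library totals alone. The counts of called members moved most with the Rn45s share as a covariate, an alternative chosen after seeing the data: Late against Basal 1, Late against Early 0, Reactivated against Basal 1, Reactivated against Early 0, the average comparison 0, Reactivated against Late 11, any difference 10, and 0 for Late and 0 for Reactivated against both earlier groups. Over all genes the numbers called, in the same order, were 205, 94, 625, 0, 6, 1860, 3723, 91 and 0. With that covariate, log2 fold changes turned to -1.28 (Hoxa7) and -0.32 (Hoxb4) in Late against Basal, to -0.0616 and -0.0357 for the same genes in Late against Early, and to -0.0262 for Lhx5 in Reactivated against Early. In the average comparison they turned to -0.47 (Gata3), -0.90 (Hoxa7), -0.00027 (Hoxb1), -0.52 (Hoxb4) and -0.14 (Six3). Some other values of Late against Basal moved little, such as Hoxd9 (3.10), Hoxc8 (3.09), Gata4 (2.30) and Nkx1-2 (1.38). Others fell but stayed positive, such as Hoxd11 (to 1.38), Lhx5 (0.96), Hoxb9 (2.19) and Nkx2-1 (2.34). The covariate nearly coincides with the groups, and the cause was not tested.

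Library totals alone gave 10 called members in Reactivated against Basal, among 7073 genes in all, and 0 in Early against Basal, among 785. The log2 fold change of Lhx2 in Late against Basal was then -0.0908. Early against Basal gave 2 without a filter and with DESeq2's test, and 0 with only the groups compared or without Basal 3 and Early 3. Over all genes these settings called 972, 1283, 755 and 950, in that order. Reactivated against Early gave 2 with only the groups compared, among 2614 genes in all. With Rn45s in the total, 44.8 members were expected in Late at equal depth. Leaving out each library in turn gave 22 to 24 members in Late against Basal, 20 to 21 in Late against Early, 4 to 8 in Reactivated against Basal, 1 to 6 in Reactivated against Early, 16 to 22 in Reactivated against Late, 0 to 2 in Early against Basal and 1 to 5 in Reactivated against both.

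With the replicate number as a block, 23 members were called in Late against Basal, 20 in Late against Early, 7 in Reactivated against Basal and 4 in Reactivated against Early. GC correction with the replicate block gave 2 in Reactivated against Early and 2 in Reactivated against both, among 2947 and 2449 genes in all. Deviations of same-numbered libraries correlated at -0.217 to 0.484 (median -0.0385, 4 of 18 pairs over 0.1), so over the 4 groups the libraries share only a number. Between Basal and Early all 3 same-numbered pairs were over 0.1, and there the block kept 1 called member. Basal 1 with Early 2 (0.223) and Basal 2 with Early 1 (0.168) were over 0.1 as well. Members with few counts, as in cluster A, are limited by depth.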
